A study of Mus musculus with 16 samples.

Results

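The genes described here are the sugar, amino acid, peptide and monocarboxylate carriers of 10 solute carrier families (Slc1a, Slc2a, Slc3a, Slc5a, Slc6a, Slc7a, Slc15a, Slc16a, Slc36a and Slc38a). The families were chosen with earlier results of these data known. Within them, every protein-coding gene of the mm9 gene models whose symbol holds one of these stems followed by a number was taken. This gave 103 genes, of which 102 were analysed. They stand among 21687 protein-coding genes on the chromosomes that carried regions. The remaining gene, Slc6a7 on chromosome 18, was not analysed here. The rule also takes in Slc7a6os, which matches by symbol and is not a carrier.

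Chromatin immunoprecipitation followed by sequencing (ChIP-seq) was carried out for 6 histone marks in intestinal epithelial cells of the jejunum, taken from C57BL/6 mouse neonates at postnatal day 12. The wild-type group (WT) is labelled F/FUN and the knockout group (KO) is labelled as an NCoR1 deletion, named DIECUN, NCoR1 being a corepressor of nuclear receptors. Each mark had 1 WT and 1 KO library. Each deposited list holds the regions in which the library of one genotype exceeded that of the other for the same mark, and these are called KO-higher and WT-higher regions. With 1 library per group no difference can be set against replicate error, so every comparison describes these libraries, carries no test, and any interval covers counting error only. The cell type or promoter that drives the deletion and the number of neonates behind a library were not stated in the labels.

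Enterocytes take up nutrients in 2 steps, across the apical brush border from the gut lumen and then across the basolateral membrane towards the blood. Sodium-coupled carriers of the Slc5a and Slc6a families and the proton-coupled peptide carrier do the first step for sugars, amino acids and peptides, and facilitative carriers and heteromeric exchangers of the Slc2a, Slc7a, Slc3a and Slc16a families do most of the second. NCoR1 recruits histone deacetylase activity to chromatin, and the suckling gut handles a milk diet before the switch to solid food. H3K27ac and H3K9ac are acetylation marks found at promoters and enhancers in use, H3K4me3 is typical of active promoters and H3K4me1 of enhancers, while H3K9me3 and H3K27me3 go with silenced chromatin.

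The sequences below are shown because each lies under the KO-higher acetylation region of highest fold of an absorptive carrier. For each of the 11 carriers of the absorptive set with KO-higher H3K27ac or H3K9ac, the region of highest fold was taken, so that second regions of a gene are not shown. Genes whose summit lay in an annotated exon of any gene were left out, Slc6a19 among them, where the exon is that of an antisense gene. Of the remaining genes, the 8 with the highest folds are given. Each reaches up to 100 bases to either side of a region's summit, with bases of exons removed, and is read 5′ to 3′ on the plus strand of mm9. The Slc5a1 window (chr5:33474127-33474295) ends at the base before a start of the gene and inside an intron of its longer transcript. The windows of Slc2a2 (chr3:28625004-28625152), Slc15a1 (chr14:121865800-121866000), Slc3a1 (chr17:85437884-85438084), Slc7a7 (chr14:55014531-55014731) and Slc16a10 (chr10:39815465-39815665) lie in introns of these genes. The window joined to Slc6a20b (chr9:123561666-123561866) lies in an intron of its neighbour Slc6a20a, and that of Slc7a8 (chr14:55413567-55413767) lies between protein-coding genes, to which all locations given here refer. The Slc16a10 window is from H3K9ac and the others are from H3K27ac. Capitals mark matches, on either strand, to AGGTCA or GGGTCA (half-sites of nuclear receptors), GATAA (GATA factors), TTTATNG (CDX factors) or CAAAGTCCA (HNF4).
Slc5a1 window: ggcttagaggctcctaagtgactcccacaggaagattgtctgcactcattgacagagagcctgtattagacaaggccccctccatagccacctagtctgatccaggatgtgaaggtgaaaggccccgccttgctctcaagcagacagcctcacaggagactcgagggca
Slc2a2 window: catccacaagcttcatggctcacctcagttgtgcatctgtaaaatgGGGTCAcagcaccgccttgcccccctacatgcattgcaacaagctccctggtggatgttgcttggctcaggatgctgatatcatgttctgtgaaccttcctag
Slc15a1 window: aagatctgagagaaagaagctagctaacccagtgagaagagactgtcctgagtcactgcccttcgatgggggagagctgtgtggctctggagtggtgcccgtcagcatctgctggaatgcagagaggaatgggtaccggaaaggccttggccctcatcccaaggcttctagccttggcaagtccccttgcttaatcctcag
Slc6a20b window: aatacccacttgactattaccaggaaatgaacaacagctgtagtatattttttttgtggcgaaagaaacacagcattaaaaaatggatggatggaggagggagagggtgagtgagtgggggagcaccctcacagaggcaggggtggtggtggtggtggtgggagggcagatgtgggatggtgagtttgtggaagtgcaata
Slc3a1 window: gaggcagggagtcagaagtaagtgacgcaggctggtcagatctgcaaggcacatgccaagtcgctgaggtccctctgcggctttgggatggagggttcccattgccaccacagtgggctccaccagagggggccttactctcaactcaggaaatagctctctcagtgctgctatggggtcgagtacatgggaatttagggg
Slc7a7 window: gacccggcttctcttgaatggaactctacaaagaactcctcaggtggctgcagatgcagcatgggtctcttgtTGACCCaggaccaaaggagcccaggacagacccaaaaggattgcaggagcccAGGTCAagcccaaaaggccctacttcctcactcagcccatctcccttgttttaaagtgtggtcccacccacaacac
Slc7a8 window: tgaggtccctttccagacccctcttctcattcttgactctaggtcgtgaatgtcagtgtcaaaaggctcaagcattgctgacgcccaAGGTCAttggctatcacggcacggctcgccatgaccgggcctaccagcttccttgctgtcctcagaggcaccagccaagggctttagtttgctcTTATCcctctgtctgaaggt
Slc16a10 window: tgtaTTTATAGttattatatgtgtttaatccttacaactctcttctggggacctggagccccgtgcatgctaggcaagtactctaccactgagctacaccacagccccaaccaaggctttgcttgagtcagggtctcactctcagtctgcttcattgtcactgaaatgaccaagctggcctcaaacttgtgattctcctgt

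Of these 8 windows, 3 held a half-site and 4 held none of the motifs searched. The Slc7a7 window held GGGTCA as its reverse complement and AGGTCA, the Slc2a2 window held GGGTCA, the Slc7a8 window held AGGTCA and a reversed GATAA, and the Slc16a10 window held TTTATNG. Among 94 KO-higher H3K27ac regions at the carriers, AGGTCA was found in 14.9% of full-length windows, beside 14.3% of the 7094 windows of the whole list. GGGTCA was found in 13.8% beside 12.5%, GATAA in 9.57% beside 11.7%, TTTATNG in 2.13% beside 3.59%, and CAAAGTCCA in 1.06% beside 0.183%, which was 1 window at the carriers. Thus the half-sites, GATAA and TTTATNG were about as common at the carriers as in KO-higher H3K27ac regions at large. Among 14 KO-higher H3K9ac windows, 3 held TTTATNG (21.4%, Wilson interval 7.57 to 47.6), beside 4.14% of the 1882 windows of that list. In the same windows GGGTCA was found in 14.3% beside 11.5% and GATAA in 7.14% beside 14%. AGGTCA was found in 0 of the 14 beside 13.2%, and CAAAGTCCA in 0 beside 0.213%. These shares rest on 14 windows, and their difference from the list was not tested. Median GC content was 54.7% in the KO-higher H3K27ac windows both at the carriers and in the whole list.

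Libraries held 27946003 to 47976125 tags, of which 23925163 to 32444815 remained after duplicates were removed, and KO H3K9ac kept the smallest share, 56%. For H3K4me1 and H3K27me3 the KO list repeats the WT list, so KO-higher regions of these marks were not analysed here. Marker genes of cell types were looked up in the lists of regions. KO-higher H3K27ac lay at 9 of 10 enterocyte markers and at 1 of 5 secretory markers, beside 11.4% of all genes. It lay at 0 of 5 immune markers and at 0 of 10 stromal, endothelial and neural markers. The lists of regions show differences between genotypes and not levels. They therefore neither check the identity of the cells nor measure how pure they were. One of the 9, Vil1, had regions in all 4 KO-higher lists, H3K9me3 among them, with folds up to 71.0.

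At least 1 region of any list lay nearest to 60 of the 102 carriers, or 58.8%, beside 38.4% of all protein-coding genes, and 42 carriers had none. A region was joined to the gene whose transcription start was nearest to its summit, within 50 kb. The 60 genes carried 170 regions of 23511. H3K27ac held most of them: 94 KO-higher regions lay at 24 carriers (23.5%), beside 11.4% of all genes. Among the 103 H3K27ac regions at carriers, 91.3% were KO-higher (95% Wilson interval 84.2 to 95.3), beside 73.9% of all H3K27ac regions. This interval treats regions as independent, although 60 of the 94 KO-higher regions lay at 8 genes. WT-higher H3K27ac lay at 8 carriers, 7.84% beside 7.44%. For H3K9ac, 7 carriers had KO-higher regions (6.86% beside 4.0%) and 10 had WT-higher regions (9.80% beside 7.55%). KO-higher H3K4me3 was found at 0 carriers (0.30% of all genes) and WT-higher H3K4me3 at 19 (18.6% beside 15.2%). WT-higher H3K4me1 lay at 15 carriers, 14.7% beside 7.39%. The repressive marks were rare, with KO-higher H3K9me3 at 2 carriers (1.96% beside 2.12%), WT-higher H3K9me3 at 0 (1.06% of all genes) and WT-higher H3K27me3 at 2 (1.96% beside 0.830%). Among lists that held more than 2 carriers, the carriers' share stood furthest above that of all genes for KO-higher H3K27ac and WT-higher H3K4me1. Regions of any KO-higher list lay at 26 carriers (25.5% beside 14.2%) and regions of any WT-higher list at 44 (43.1% beside 28.6%). Acetylation of either kind was KO-higher at 24 carriers (23.5% beside 12.1%) and WT-higher at 16 (15.7% beside 12.6%). Carrier genes were longer than most, with a median span of 34.0 kb beside 15.4 kb for all genes, and the part of gene length in these shares was not tested.

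**Figure D1:**
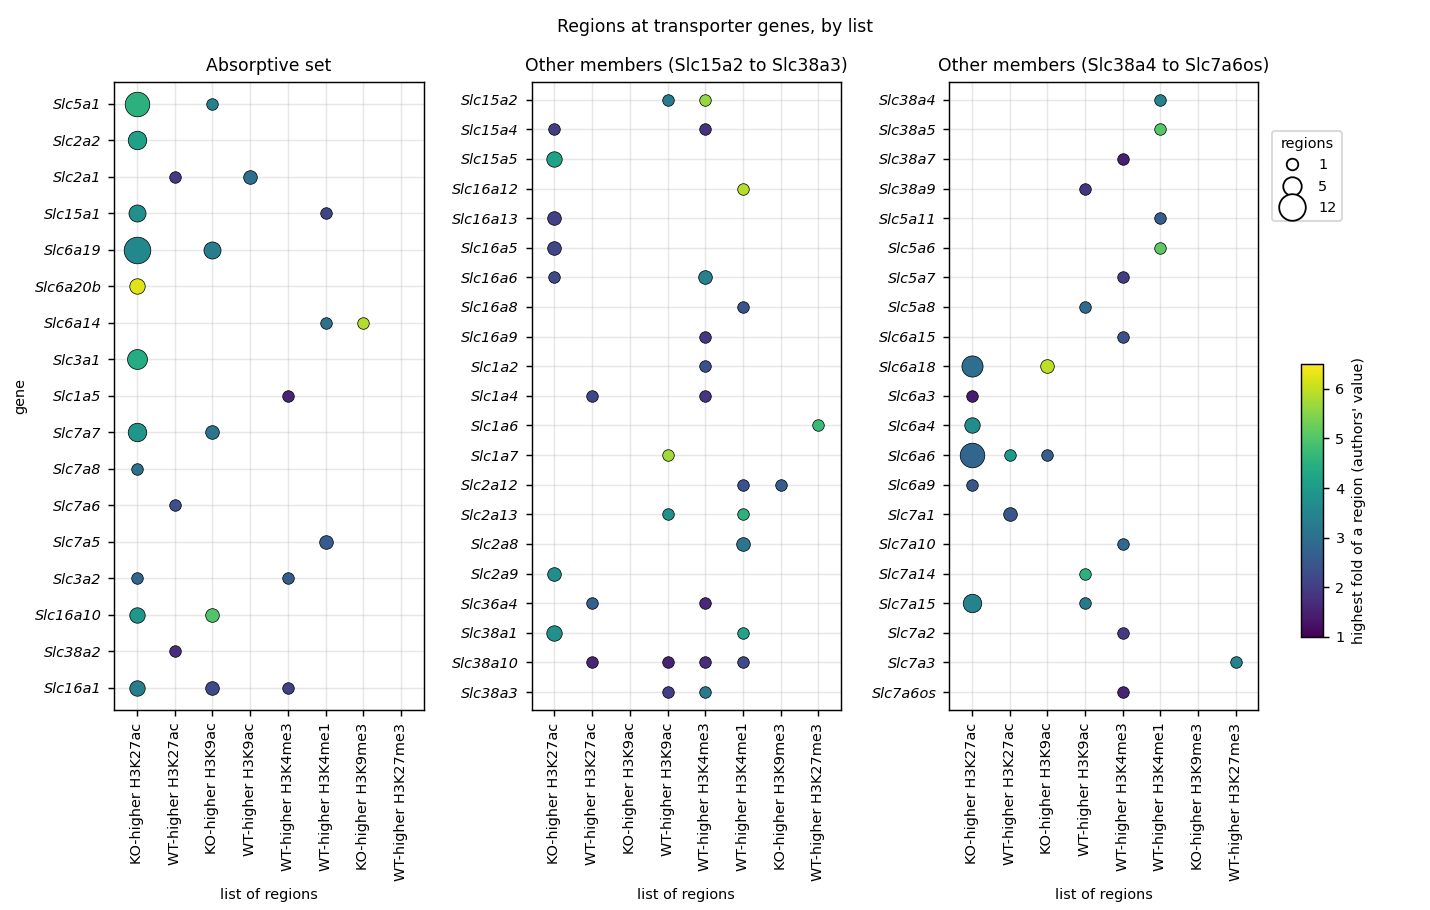
Regions at carriers that had any, apart from 1 gene not reported here, with genes on the vertical axes (17 absorptive carriers on the left, the others in the middle and right panels) and the 8 lists that held a carrier on the horizontal axes. The size of a point gives the number of regions and its colour the highest fold (the authors' ratio); Slc6a19 has the largest point, 12 KO-higher H3K27ac regions, and Slc6a20b the highest KO-higher H3K27ac fold, 6.24.

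The carriers known to work in the absorptive epithelium were set apart as a list of 23. This list was chosen with earlier results of these libraries known, so it is not independent of the counts given here. KO-higher H3K27ac was listed in the absorptive set more often than at the other carriers. It lay at 11 of the 23 (47.8%) with 53 regions, and at 13 of the 79 other carriers (16.5%), beside 11.4% of all genes. KO-higher H3K9ac lay at 5 of the 23 and at 2 of the 79, beside 4.0% of all genes. Of H3K27ac regions, 94.6% of 56 in the absorptive set and 87.2% of 47 at the other carriers were KO-higher, beside 73.9% of all. For H3K9ac these shares were 84.6% of 13 (95% Wilson interval 57.8 to 95.7) and 25% of 12 (8.89 to 53.2), beside 46.7% of all. The 11 KO-higher H3K9ac regions of the absorptive set lay at only 5 genes, with 4 regions at Slc6a19. The median span was 29.8 kb in the absorptive set and 34.9 kb in the other carriers, and the part of gene length in this difference was not tested. As enterocyte markers had KO-higher H3K27ac at 9 of 10 genes, the part that a different share of enterocytes, or of mature enterocytes, in the KO cells had in these counts was not tested.

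**Figure D2:**
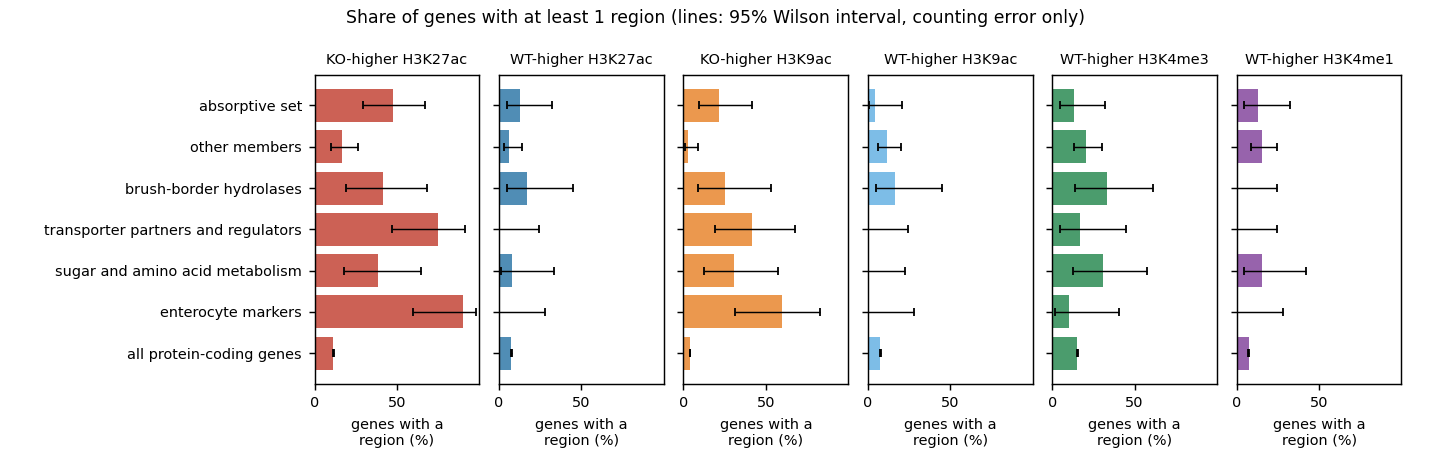
Percent of genes with at least 1 region, for the absorptive set, the other carriers, related gene lists, enterocyte markers and all protein-coding genes (vertical axis), in 6 lists (panels). Apart from all protein-coding genes, these sets of genes were chosen with earlier results of these libraries known. Lines are 95% Wilson intervals of counting error only, and genes are not replicates; KO-higher H3K27ac reaches 47.8% in the absorptive set and 11.4% in all genes.

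Among the sugar carriers, both members of the glucose route had KO-higher H3K27ac. Slc5a1 encodes SGLT1, the sodium-coupled glucose and galactose carrier of the brush border, and had 10 regions over 61198 bp with folds from 1.76 to 4.51. The highest, with a pileup of 33.0 at the summit, lay 69 bp before a start of the gene, and the next (fold 4.23, pileup 62.0) lay 8779 bp inside it. A cluster of 3 regions lay 11502 to 12647 bp before that start, in an intron of the longer transcript, and their folds were 2.76, 3.41 and 3.6. One KO-higher H3K9ac region (fold 3.40) overlapped this cluster, and 1 more H3K27ac region (fold 3.20) lay 13681 bp past the start of the longer transcript. A further 4 regions with lower folds, 1.76 to 2.39, lay 19784 to 24868 bp upstream of the longer transcript. The pileup is the depth in the KO library, since the lists do not give the depth of the other genotype at a region.

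Slc2a2 encodes GLUT2, which passes sugars across the basolateral membrane, and had 5 KO-higher H3K27ac regions with folds from 2.2 to 4.15. One lay 244 bp before the start and had the deepest pileup, 112.0, with a fold of 2.53. The region of highest fold lay in an intron 28279 bp downstream (pileup 32.0). The most distant one, 39390 bp upstream with a fold of 3.74, lay in an intron of Tnik, and was joined to Slc2a2 by distance alone. No H3K9ac region was listed for Slc2a2.

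The widely expressed glucose carrier Slc2a1 (GLUT1) went the other way. A WT-higher H3K27ac region (fold 1.94) had its summit 23 bp past the start, and a WT-higher H3K9ac region (fold 2.21) that shared bases with it had its summit at 50 bp. A second WT-higher H3K9ac region (fold 2.98) lay 2757 bp upstream. Thus Slc5a1 and Slc2a2 were marked higher in KO, mostly away from their starts, and Slc2a1 higher in WT at its start. Slc2a5 (GLUT5, the fructose carrier) and Slc2a7 (GLUT7, a hexose carrier) had no region in any list.

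Slc15a1 encodes PEPT1, the carrier of di- and tripeptides, and had 4 KO-higher H3K27ac regions. Their folds were 3.75 at 38575 bp downstream of the start, 3.34 at 9576 bp, 2.94 at 9165 bp and 2.81 at 1230 bp upstream. In the same gene a WT-higher H3K4me1 region (fold 2.13) lay 3039 bp downstream and shared no bases with them. Slc15a1 was thus KO-higher for one enhancer mark and WT-higher for the other, at different places.

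Of the carriers of amino acids at the brush border, Slc6a19 stood out by the number of regions. It encodes B0AT1, the main sodium-coupled carrier of neutral amino acids, and had 12 KO-higher H3K27ac regions with folds from 1.73 to 3.57. Counted over all 2465 genes with such a region it ranked 28th, and 36 genes had 12 or more. Its deepest pileups were 167.0 at 2011 bp and 105.0 at 4237 bp downstream of a start and 114.0 at 474 bp upstream. The folds there were 1.73, 2.97 and 2.23, so the highest folds (3.57 at 8060 bp upstream and 3.53 at 7358 bp downstream) were not at the deepest summits. Another 4 KO-higher H3K9ac regions lay 1673 to 3628 bp downstream, with folds of 1.59 to 3.29, and those at 2024 and 3628 bp overlapped H3K27ac regions.

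The neighbour of Slc6a19 is Slc6a18, which encodes a related carrier best known from the kidney. It was joined to 7 KO-higher H3K27ac regions with folds from 2.07 to 2.96, and 6 of these lay inside Slc6a19. Together the locus held 19 KO-higher H3K27ac regions in 38.6 kb. Slc6a18 also had the highest KO-higher H3K9ac fold of the carriers, 5.95, between genes 18698 bp past its start (pileup 19), and a second region of fold 3.70 inside Slc6a19. Regions between 2 starts are divided by distance alone, so the counts of these 2 genes are best read as 1 locus.

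Slc6a20b, a paralogue of the proline carrier gene Slc6a20a (SIT1), was joined to 3 KO-higher H3K27ac regions with folds of 6.24, 2.97 and 2.89. All 3 lay in introns of Slc6a20a, 9135 to 20083 bp from the start of Slc6a20b, and the region of highest fold had a pileup of 30. Slc6a20a had no region of its own by the nearest start, so these values belong to the pair of genes. Reads of close paralogues can also map to both copies, and how such reads were placed is not stated in the labels.

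Slc3a1 encodes rBAT, the heavy chain of the exchanger for cystine and basic amino acids. It had 6 KO-higher H3K27ac regions with folds from 3.11 to 4.39, and all lay in its introns, 4598 to 22157 bp downstream of the start. Its lowest fold was above the median of all KO-higher H3K27ac regions, 2.52. Its light chain Slc7a9 (b0,+AT) had no region in any list, nor had Slc1a1 (the glutamate and aspartate carrier EAAC1) or Slc36a1 (the proton-coupled carrier PAT1). Slc1a5, which encodes the glutamine exchanger ASCT2, had 1 WT-higher H3K4me3 region (fold 1.54) at its start. Slc6a14 encodes a carrier of neutral and basic amino acids. It had a WT-higher H3K4me1 region (fold 3.04) 113 bp past its start and a KO-higher H3K9me3 region (fold 5.88, pileup 16) 14082 bp upstream.

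**Figure D3:**
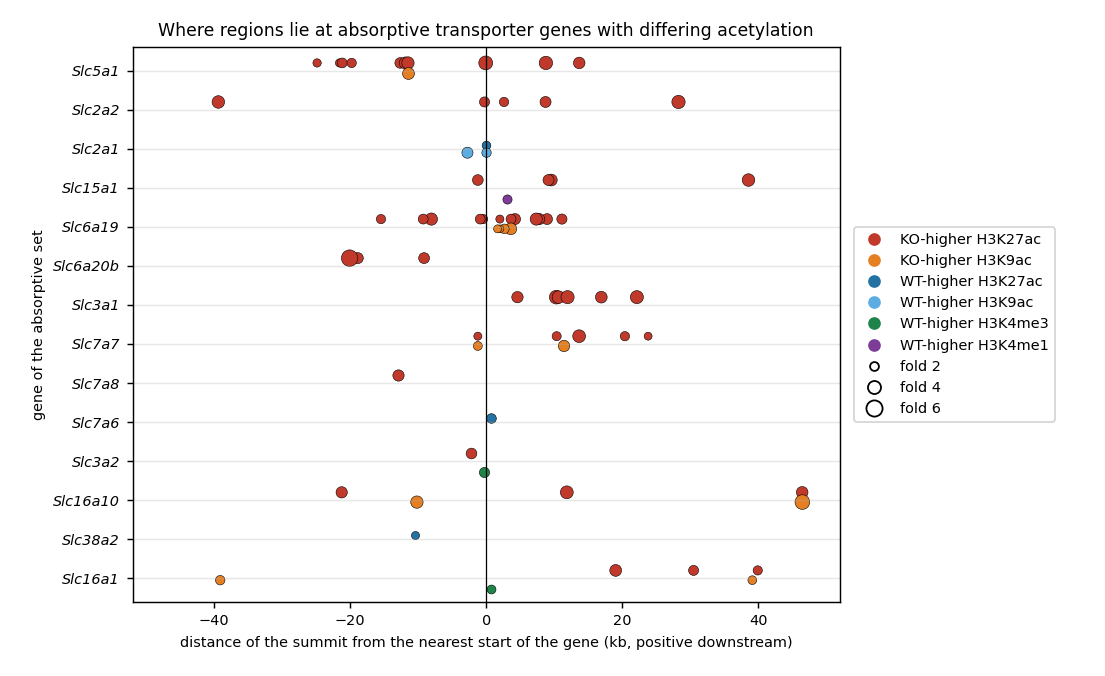
Distance of each region's summit from the nearest start of its gene (kb, positive downstream) for the 14 absorptive carriers with a differing H3K27ac or H3K9ac region, coloured by list and sized by fold. KO-higher H3K27ac of Slc3a1 lies 4598 to 22157 bp downstream, and the WT-higher acetylation of Slc2a1 includes regions at its start.

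Among the basolateral amino acid carriers of the absorptive set and their heavy chain, KO-higher acetylation lay at Slc7a7, Slc7a8, Slc16a10 and Slc3a2. Slc7a7 encodes y+LAT1, the light chain that exports basic amino acids, and had 5 KO-higher H3K27ac regions with folds of 1.66 to 3.86. The highest lay in an intron 13666 bp downstream (pileup 42.0). Of its 2 KO-higher H3K9ac regions, that at 1232 bp upstream of a start (fold 2.03) shared bases with an H3K27ac region of fold 1.71, and the other (fold 3.13) lay 11446 bp downstream. Both marks were thus higher in KO at this gene, once over the same bases.

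Slc16a10 encodes TAT1, a carrier of aromatic amino acids. It had 3 KO-higher H3K27ac regions with folds of 3.92 at 11854 bp downstream, 3.25 at 46467 bp downstream and 3.08 at 21250 bp upstream. The region far downstream shared bases with a KO-higher H3K9ac region of fold 4.99, and a further KO-higher H3K9ac region of fold 3.62 lay 10189 bp upstream. The distal pair lay near the limit of 50 kb, inside the gene's own intron. Slc7a8 (LAT2, an exchanger of neutral amino acids) had 1 KO-higher H3K27ac region with a fold of 3.08, 12944 bp upstream and with a pileup of 106.0.

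Slc3a2 encodes CD98, the heavy chain that the basolateral light chains share. It had a KO-higher H3K27ac region (fold 2.80) in an intron 2174 bp before a start and a WT-higher H3K4me3 region (fold 2.57) 346 bp before another start. A pair of related carriers had WT-higher H3K27ac alone, Slc7a6 (y+LAT2; fold 2.34 at 640 bp past its start) and the small neutral amino acid carrier Slc38a2 (SNAT2; fold 1.71 at 10495 bp upstream). Slc7a5 (LAT1, an exchanger of large neutral amino acids) had 2 WT-higher H3K4me1 regions with folds of 2.56 and 2.19. The first of these lay 33283 bp downstream of the start, outside Slc7a5 and in an intron of Gm20388. The directions therefore differed among light chains of one family: Slc7a7 and Slc7a8 were KO-higher for H3K27ac, Slc7a6 was WT-higher for it, and Slc7a5 was listed for H3K4me1 only.

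Slc16a1 encodes MCT1, the carrier of lactate, butyrate and ketone bodies. It had 3 KO-higher H3K27ac regions, with folds of 3.36 at 19042 bp, 2.5 at 30499 bp and 2.15 at 39934 bp downstream. KO-higher H3K9ac lay 39135 bp downstream (fold 1.96) and 39115 bp upstream (fold 2.24). At its promoter it had a WT-higher H3K4me3 region (fold 2.03, pileup 128.0), 741 bp past the start. The gene was thus KO-higher for acetylation at a distance and WT-higher for H3K4me3 near its start.

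Outside the absorptive set, the most regions lay at Slc6a6, which encodes the taurine carrier. It had 10 KO-higher H3K27ac regions, all in its introns, with folds of 1.5 to 2.79, and 1 KO-higher H3K9ac region of fold 2.62. It also had a WT-higher H3K27ac region of fold 3.97, 46011 bp upstream, the highest WT-higher H3K27ac fold of the carriers, with a low pileup of 14.9. Slc7a15 had 5 KO-higher H3K27ac regions with folds of 1.79 to 3.42 and 1 WT-higher H3K9ac region of fold 3.23 at 13707 bp. Slc6a6 and Slc7a15 were the 2 carriers with acetylation regions in both directions, 1.96% of carriers beside 1.19% of all genes. WT-higher H3K27ac with KO-higher H3K9ac, as at Slc6a6, was found at 0.267% of all genes, and KO-higher H3K27ac with WT-higher H3K9ac, as at Slc7a15, at 0.558%.

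Slc15a5 had 3 KO-higher H3K27ac regions up to a fold of 4.18, and Slc38a1 (SNAT1, a carrier of glutamine) had 3 up to 3.75. The serotonin carrier gene Slc6a4 had 3 regions within 1559 bp inside the gene, up to a fold of 3.70. The urate carrier gene Slc2a9 had 2 up to 3.67. Slc16a13 and Slc16a5 had 2 each, and Slc6a9, Slc16a6, Slc15a4 and Slc6a3 had 1 each, with folds of 1.42 to 2.47. With Slc6a18, Slc6a6 and Slc7a15, these are the 13 carriers outside the absorptive set with KO-higher H3K27ac.

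By family, KO-higher H3K27ac lay at 7 of 18 Slc6a, 5 of 14 Slc16a, 3 of 16 Slc7a, 3 of 5 Slc15a and both Slc3a genes. It lay at 2 of 12 Slc2a, 1 of 13 Slc5a, 1 of 11 Slc38a, 0 of 7 Slc1a and 0 of 4 Slc36a genes. The share over all genes was 11.4%, and the families are small. Genes with KO-higher H3K27ac had a median of 3.0 regions among the carriers and 2.0 among all genes. Among carriers 8 of 24 had 5 or more (33.3%), beside 13.3% of all genes with such a region, and these 8 held 60 of the 94 regions. Of the 8, 5 were in the absorptive set. The 8 also count Slc6a18 and Slc6a19 apart, although 6 of the 7 Slc6a18 regions lay inside Slc6a19.

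Of the 94 KO-higher H3K27ac regions, 63 lay in introns, 11 in exons and 20 between genes. Within 1 kb of a start lay 9.57% of them, beside 8.01% of the whole list, and 0 of 14 KO-higher H3K9ac regions, beside 15.3%. Of the WT-higher regions, 44.4% of 9 H3K27ac, 54.5% of 11 H3K9ac and 90% of 20 H3K4me3 regions lay within 1 kb, beside 37.4%, 47.0% and 67.2% of the whole lists. For WT-higher H3K4me1 this share was 11.1% of 18, beside 9.63%, and for WT-higher H3K27me3 it was 0 of 2. The median distance to a start was nonetheless alike for WT-higher and KO-higher H3K27ac at the carriers, 10495 and 10330.5 bp. The folds of KO-higher H3K27ac regions had a median of 2.57 at the carriers and 2.97 in the absorptive set, beside 2.52 for the list. The carriers thus differed from the lists at large more in how many genes and regions were listed than in the folds.

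**Figure D4:**
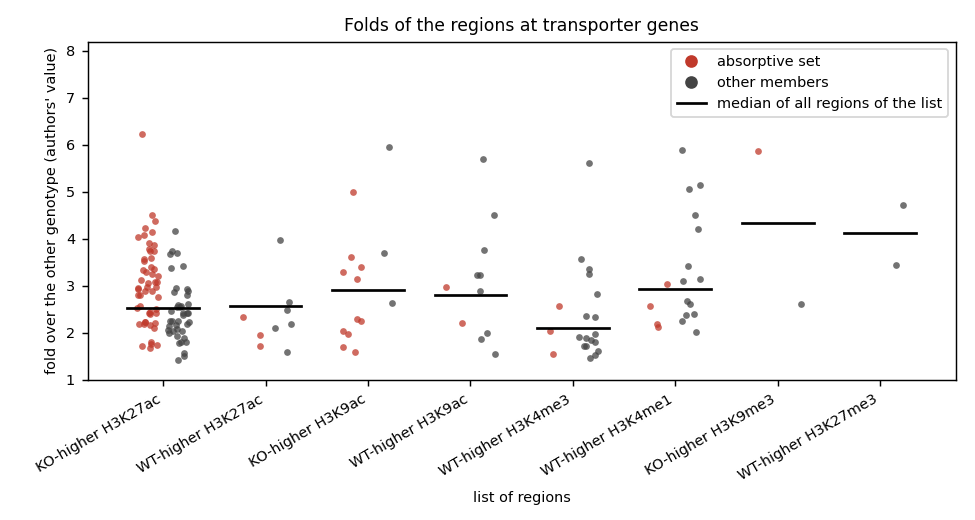
Fold over the other genotype (the authors' ratio, vertical axis) of each of the 170 regions, by list (horizontal axis), with the absorptive set in red and the other carriers in grey; the black line is the median of all regions of the list. Points are spread sideways for legibility, and KO-higher H3K27ac folds of the absorptive set run from 1.66 to 6.24 around a list median of 2.52.

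KO-higher H3K27ac and KO-higher H3K9ac were found together at 7 carriers, Slc5a1, Slc6a19, Slc6a18, Slc6a6, Slc7a7, Slc16a10 and Slc16a1, or 6.86% beside 3.28% of all genes. Every carrier with KO-higher H3K9ac also had KO-higher H3K27ac, as had 711 of the 868 genes with KO-higher H3K9ac over the genome. Of the 14 KO-higher H3K9ac regions, 5 overlapped KO-higher H3K27ac by at least 1 base, at Slc5a1, Slc6a19, Slc7a7 and Slc16a10. WT-higher H3K27ac and H3K9ac were found together at Slc2a1 and Slc38a10 (1.96% beside 2.37%), and shared bases at Slc2a1. KO-higher H3K27ac and WT-higher H3K4me3 met at 4 carriers, Slc3a2, Slc16a1, Slc16a6 and Slc15a4, 3.92% beside 1.81%, and overlapped at none. KO-higher H3K27ac and WT-higher H3K4me1 met at Slc15a1 and Slc38a1 (1.96% beside 1.35%), again with no overlap.

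WT-higher H3K27ac outside the absorptive set lay at Slc6a6, at Slc7a1 (the arginine and lysine carrier CAT1; 2 regions up to fold 2.48), at Slc36a4 (fold 2.66), at Slc1a4 (ASCT1; fold 2.17) and at Slc38a10 (fold 1.59). At Slc1a4 and Slc36a4 the region shared bases with a WT-higher H3K4me3 region, of folds 1.85 and 1.61, near the start. Slc38a10 had WT-higher regions of 4 marks, more than any other carrier, but all 4 regions lay between genes, 20218 to 36333 bp upstream of it, with folds of 1.54 to 2.24. At Slc15a2, the kidney-type peptide carrier PEPT2, WT-higher H3K4me3 (fold 5.61, the highest among carriers) and H3K9ac (fold 3.24) shared bases at the start, though their pileups were only 19 and 11. Slc38a3 (SNAT3) likewise had WT-higher H3K4me3 (fold 3.24) and H3K9ac (fold 1.99) over the same bases.

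Other WT-higher H3K9ac regions lay at Slc1a7 (the glutamate carrier EAAT5, fold 5.71 with a pileup of 17), Slc7a14 (4.51) and Slc2a13 (the myo-inositol carrier, 3.76). The last 2 of this list were at Slc5a8 (a sodium-coupled monocarboxylate carrier, 2.89) and Slc38a9 (a lysosomal carrier and arginine sensor, 1.85). WT-higher H3K4me3 lay at Slc16a6 (folds 3.37 and 1.71) and Slc7a10 (2.83), and at Slc1a2, Slc5a7, Slc6a15, Slc7a2, Slc7a6os, Slc16a9, Slc38a7 and Slc15a4 with folds of 1.46 to 2.35. The Slc7a14 region lay 49134 bp from the start, the closest to the limit of 50 kb on the inner side. Among regions beyond the limit, a WT-higher H3K4me3 region lay 54196 bp from Slc15a1.

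WT-higher H3K4me1 was listed at 15 carriers, and 2 of its 18 regions, at Slc38a5 and Slc6a14, lay within 1 kb of a start. Its highest folds were at Slc16a12 (5.89), Slc5a6 (5.15), Slc38a5 (5.05), Slc2a13 (4.51) and Slc38a1 (4.20). Pileups at these summits were 25, 22, 17, 42 and 18 in that order, beside a median of 37 for the whole list. Slc2a8 (GLUT8) had 2 regions, 1 of fold 3.14 in its own intron and 1 of fold 3.10 in an intron of Garnl3, 7421 bp upstream. Single regions lay at Slc38a4, Slc2a12, Slc5a11 and Slc16a8, beside those at Slc15a1, Slc6a14, Slc7a5 and Slc38a10 given above. Slc2a12 (GLUT12) also had a KO-higher H3K9me3 region of fold 2.61, and WT-higher H3K27me3 lay at the glutamate carrier gene Slc1a6 (fold 4.72) and at Slc7a3 (CAT3; fold 3.43, in an intron of Snx12).

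RNA values came from the authors' deposited table. It covers 1549 genes that the authors named beside the WT-higher H3K4me1 regions, and these held 15 carriers. Its fold changes were read as KO over WT from the heading of the column, and the opposite reading would turn every sign. In the authors' deposited table, Slc15a1 was higher in KO, with a log2 fold change of 0.55 (FDR 1.33e-09). It had KO-higher H3K27ac and was 1 of 77 genes called higher (4.97%). Slc2a8 was lower in KO in the authors' deposited table (log2 fold change -0.92, FDR 8.17e-11), as was Slc5a6 (-0.70, FDR 8.09e-05), which encodes a carrier of biotin and pantothenate. They were 2 of 149 genes called lower (9.62%). The other 12 carriers in the authors' deposited table had FDR values above 0.05, Slc6a14 (-0.42, FDR 0.653), Slc7a5 (-0.02, FDR 1.0) and Slc38a1 (-0.07, FDR 0.852) among them. Over the 15 carriers the log2 fold change was negative for 12 and positive for 3, with a median of -0.32 beside -0.04 for all genes of the authors' deposited table. RNA of the carriers with the most KO-higher H3K27ac, such as Slc6a19, Slc5a1 and Slc3a1, was not analysed here.

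**Figure D5:**
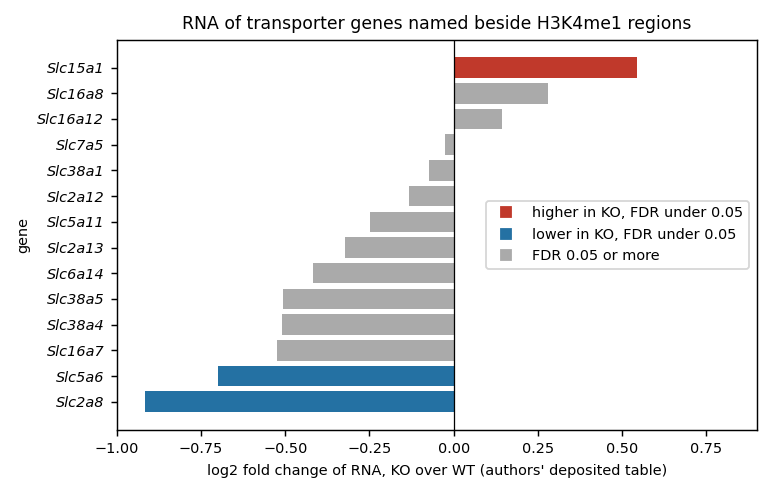
Log2 fold change of RNA, KO over WT, of the carriers in the authors' deposited table, apart from 1 gene not reported here (horizontal axis), by gene (vertical axis); bars are coloured where the authors' FDR is under 0.05. Slc15a1 at 0.55 is the bar called higher, Slc2a8 at -0.92 and Slc5a6 at -0.70 are those called lower, and the grey bars are not called.

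Genes that work beside the carriers were listed in a fixed set of related lists. Of 12 partners and regulators, 9 had KO-higher H3K27ac, beside 11.4% of all genes, and 5 had KO-higher H3K9ac, beside 4.0%. The highest KO-higher H3K27ac folds were at Tmem27 (collectrin, a partner of B0AT carriers; 4.83) and Slc9a3 (the sodium and proton exchanger NHE3; 4.33). Slc9a3 also had KO-higher H3K9ac up to a fold of 4.80. Emb, a chaperone of monocarboxylate carriers, had a WT-higher H3K4me3 region of fold 2.22 and was lower in KO in the authors' deposited table (log2 fold change -0.79, FDR 0.00646).

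Of 12 brush-border hydrolases, which release sugars and amino acids for uptake, 5 had KO-higher H3K27ac, beside 11.4% of all genes. The highest folds were 6.38 at Mgam (maltase-glucoamylase), 4.75 at Enpep (aminopeptidase A) and 3.09 at Ace. Anpep (aminopeptidase N) and Mep1a (meprin alpha) had WT-higher H3K27ac and H3K9ac instead. Of 13 genes of sugar and amino acid metabolism, 5 had KO-higher H3K27ac, again beside 11.4% of all genes. The highest folds there were at Fbp1 (3.96) and G6pc (3.8). In the authors' deposited table Oat, an enzyme of ornithine metabolism, was not called (log2 fold change 0.11, FDR 0.523). These lists, like the absorptive set, were chosen with earlier results of these libraries known.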

How the data were processed

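The 16 samples comprise 12 ChIP-seq libraries (6 marks, WT and KO) and 4 input libraries, which were not used here. Single-end sequencing ran for 50 cycles with mapping to mm9, per the labels. Tools listed in the submitters' processing notes are MACS2 2.1.1, Bowtie2 2.2.9, HOMER 3.12 and CASAVA 1.8.2, whereas the headers of the lists give MACS 2.0.10.20130419 with a tag size of 75. Which of these applies is unsettled. In each call the authors used the other genotype's library as the control, keeping 1 tag per position and q values up to 0.05, per the file headers. Per the file headers, a region's deposited signal is its summit pileup, its fold is a ratio over that control, and -log10 values stand for the p-value and q-value. RNA log2 fold changes and FDR (adjusted p-value) are the authors' own, from 1 deposited table. Their sign was taken as KO over WT from the column heading, where WT is named first, and no source names the RNA test. Its 12 columns of 6 RNA libraries name no sample of the series and were not used. Of 12 lists, 2 repeat another, so 10 were used.

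Regions were joined to GENCODE mm9 protein-coding starts by the nearest summit within 50 kb, and promoters reached 1 kb. Regions on a contig named for UGT1A (89) and on chromosomes without genes joined no carrier. Shares carry 95% Wilson intervals. Genes named were those of the absorptive set with a region or RNA value, those with 2 marks, the 5 highest folds per list, RNA calls, and up to 3 leading genes per related list; the rest are named with counts. The carriers and gene lists were chosen with earlier results of these data known. Alternatives varied the distance, q, fold, starts, gene kinds and promoter length. The join was tested on simulated data. Sequences came from the NCBIM37 (mm9) genome. Calculations used Python 3.11.15, pandas 2.3.3, numpy 2.4.6 and scipy 1.17.1, and figures used matplotlib 3.10.9. Some genes that the naming rule takes in are not reported here by name, and stay in the counts.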

Additional observations from a re-analysis of the deposited data

How the results depend on the processing

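Of 235 alternative values over 38 results, 182 stayed within the limits set for a match (1.5 times for a count, the Wilson interval for a share) and 53 moved. A reversal of direction was not among the labels given. The 182 include the lists with 0 carriers, KO-higher H3K4me3 and WT-higher H3K9me3, which stayed at 0 under every setting. Results rest on 1 library per group, so none has a replicate check, and the lists give no depth for the other genotype. No paired analysis was possible because each mark has 1 library per genotype and the labels carry no replicate number.

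With a fold of at least 4, KO-higher H3K27ac kept 5 carriers and 8 regions, and 100% of H3K27ac regions were KO-higher. KO-higher H3K9ac then had 2 carriers and 2 regions, WT-higher H3K27ac 0 and 0, WT-higher H3K9ac 2 and 2 (0% at promoters), WT-higher H3K4me3 1 and 1 (100% at promoters), WT-higher H3K4me1 5 and 5, KO-higher H3K9me3 1 and 1, and WT-higher H3K27me3 1 and 1. With -log10 q of at least 5, carriers numbered 5 for WT-higher H3K27ac, 5 for WT-higher H3K9ac (5 regions), 6 for WT-higher H3K4me3 (6 regions, 100% at promoters), 6 for WT-higher H3K4me1 (7 regions), 1 for KO-higher H3K9me3 (1 region) and 0 for WT-higher H3K27me3 (0 regions), KO-higher H3K9ac had 8 regions, and 0 carriers had WT-higher acetylation of both kinds or WT-higher H3K27ac with KO-higher H3K9ac.

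Within 20 kb, WT-higher H3K27ac had 5 carriers and 5 regions (80% at promoters), KO-higher H3K9me3 1 and 1, and WT-higher H3K27me3 1 and 1, 100% of WT-higher H3K4me3 regions were at promoters, and WT-higher H3K27ac lay with WT-higher H3K9ac at 1 carrier and with KO-higher H3K9ac at 0. By overlap with the gene body, carriers numbered 4 for WT-higher H3K27ac, 0 for KO-higher H3K9me3 and 1 for WT-higher H3K27me3. With starts of genes of every kind, KO-higher H3K9ac had 6 regions. With promoters of 2.5 kb, 18.1% of KO-higher H3K27ac regions were at promoters. Counted by shared bases, both acetylation marks were KO-higher at 4 carriers and WT-higher at 1, and opposite at 0 in each combination. The cause of these moves, beyond fewer regions under stricter limits, was not tested.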
